A study of Rattus norvegicus with 20 samples.

Results

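The comparison described here is that of dorsal root ganglia 14 days after chronic constriction injury (CCI) with ganglia 14 days after a sham operation. It was made across every probe set of a rat genome array except the array's own controls. The 3 CCI arrays and the 2 sham arrays of that day, 5 of the 20 arrays in all, were chosen by their titles, so no measured value decided which arrays entered. The other arrays held ganglia 21 days after CCI (3), 14, 21 and 50 days after Seltzer surgery (2, 3 and 2), and 21 and 50 days after sham surgery (3 and 2). All samples were total RNA from rat ganglia, and the CCI ganglia came from the side of the injured limb. The strain, sex and age of the rats, and whether a sample held 1 animal or several, are not given in these sources. Nothing says that the arrays of a group came from separate animals. The p-values therefore rest on the spread between arrays within groups, taken over all 20 arrays, which may be technical. The 14-day sham arrays and the 14-day Seltzer arrays also resembled each other in ways that cut across surgery, so each gene was read beside a second contrast, Seltzer 21 days minus Seltzer 14 days, which shares no array with the first.

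A dorsal root ganglion holds the cell bodies of the sensory neurons of 1 spinal nerve, wrapped in satellite glia and accompanied by Schwann cells, macrophages and connective tissue. In CCI, loose ligatures are tied round the sciatic nerve, and in the Seltzer model part of that nerve is tied off tightly; both injure some of the axons and leave others, and both are used to study pain from nerve damage. When a sensory axon is cut, its cell body is known to shut down part of its normal transmitter and channel programme and to turn on genes of stress and regrowth, among them the transcription factor ATF3 and the peptides galanin and neuropeptide Y, while macrophages in the ganglion become activated.

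The values are intensities on a linear scale. On the 5 arrays the median intensity ran from 44.5 to 51.2, and between 20.1% and 24.0% of probe sets lay above background, taken for each array from the size of its negative values, at their 95th percentile (176 to 249). Sensory neuron markers identified the tissue: 10 of 11 measured were above background on all 5 arrays, as were 5 of 5 measured Schwann cell markers. All 3 measured markers of T and B cells, of mast cells and of endothelium were above background on none. The summed intensity of 5 measured skeletal muscle markers was 8007 to 9323 on the CCI arrays and 3926 to 4407 on the sham arrays. That of 4 measured macrophage markers was 1865 to 2683 against 946 to 1418, with Csf1r, C1qb and Aif1 above background on no array. Summed satellite glia markers also did not overlap, at 4924 to 6712 against 2969 to 4527, with Kcnj10, Fabp7 and Gja1 above background on no array. Nor did the sum of 2 measured red blood cell markers, at 5255 to 6772 against 3640 to 4738. The sums of all other cell types looked at, sensory neurons, Schwann cells and fibroblasts among them, overlapped between CCI and sham arrays. The part of these cell types in the results below was not tested.

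The 2 groups also differed in which other arrays they resembled. Over all probe sets, log2 values of CCI arrays correlated with those of 14-day sham arrays at 0.905 to 0.914, and with those of 21-day sham arrays, leaving out replicate 1, at 0.934 to 0.951. The 14-day sham arrays correlated with Seltzer 14-day arrays at 0.933 to 0.942 and with the same 21-day sham arrays at 0.906 to 0.912. An array control for 5S ribosomal RNA read 123 to 172 on the 4 sham and Seltzer arrays of day 14 and 199 to 432 on the 12 arrays of CCI day 14 and of day 21. The labels name no batch. CCI and sham at 14 days lie wholly on different sides of this split, so injury and array set cannot be told apart from these 5 arrays alone.

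CCI and sham ganglia at 14 days differed at 243 of 8740 probe sets, 2.78% of those tested (limma, two-sided, Benjamini-Hochberg adjusted p under 0.05, on log2 of the intensity plus 16). Of these, 118 (1.35%) were higher after CCI and 125 (1.43%) lower. Leaving out sham replicate 1 lowered the count to 142, and leaving out any 1 other array of the comparison gave 162 to 193. With the 21-day sham arrays as the control, 58 (0.664%) were called and 65.5% of them were higher. For all 243 the ranges of the CCI and sham arrays did not overlap. Choosing probe sets by a small p-value favours this, so it adds no support. The share over all probe sets is not given.

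The called probe sets were sorted by Seltzer 21 days minus Seltzer 14 days, in which 209 probe sets (2.39%) were called. A probe set that passed there in the same direction was marked as also following the array sets, and 99 were (55 higher, 44 lower). Another 49 (14 higher, 35 lower) had an unadjusted p under 0.05 there in the same direction and were called doubtful. The remaining 95 (49 higher, 46 lower) are the injury candidates; they are not shown to lack an array-set difference. The marks rest on few arrays: without Seltzer 14-day replicate 2 they numbered 62. Candidates numbered 57, 52 and 62 without CCI replicate 1, 2 or 3, and 57 and 76 without sham replicate 1 or 2. At the limits of the rule, the last marked probe set had an adjusted p of 0.047 in the Seltzer contrast and the first doubtful one, for P4hb, 0.052; the last doubtful one had an unadjusted p of 0.0496 and the first candidate, for Gnao1, 0.052. The values that placed a probe set in a class are given as description. Of the candidates, 26 were above background on none of the 5 arrays, and so were 14 marked and 8 doubtful probe sets. Such calls can rest on values set to 0, as for the Map1b probe set, which read -34, -41 and -74 after CCI and 12 and 11 in sham.

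**Figure D1:**
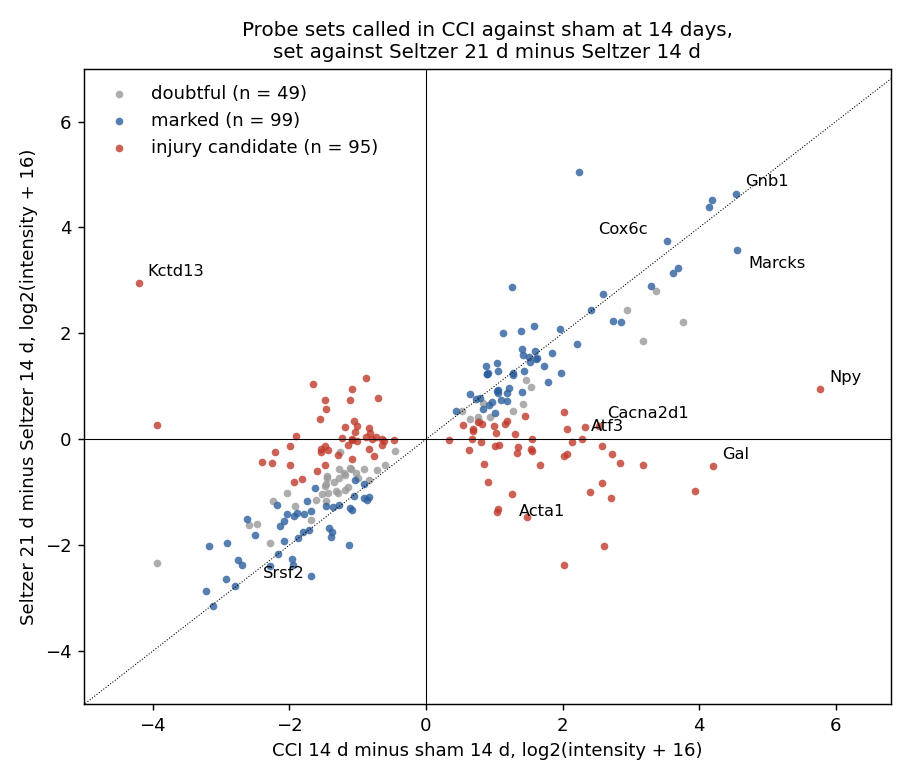
Each point is 1 of the 243 probe sets called in CCI against sham at 14 days; the x axis is that difference and the y axis Seltzer 21 days minus Seltzer 14 days, both on the log2(intensity + 16) scale. The dotted line marks equal differences: by the rule the 99 marked probe sets have the same sign on both axes, some of them far from that line, and the candidates, Npy, Gal, Atf3 and Cacna2d1 among them, did not pass in the same direction on the y axis.

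The 2 largest rises among the candidates, those of Npy and Gal, were in genes that injured sensory neurons are known to turn on. On the list of 43 measured axotomy and regeneration genes, 8 rose and none fell (11 and 0 at an unadjusted p under 0.05 by limma, which 10.6% of all probe sets had), all 8 as candidates: Npy, Gal, Vgf, Atf3, Cacna2d1, Reg3b, Hspb1 and Timp1. The list's median difference was 0.33 on the log2 scale, against 0.00 over all probe sets tested, of which 1.35% were called higher. This list, like the others, was chosen with earlier results of these data known, so its counts are description. Npy encodes neuropeptide Y, a peptide nearly absent from uninjured ganglia. It read 2826, 2563 and 2811 after CCI and 46 and 25 in sham, the latter both below background. Npy was at least 11.6-fold higher after CCI (log2 difference 5.77, SE 0.59, adjusted p = 8.1e-05, limma). The Seltzer 14-day arrays, of the same apparent set as the sham arrays, read 805 and 657 for Npy, between the other groups.

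Gal encodes galanin, another peptide of injured sensory neurons. It read 1373, 1508 and 1373 after CCI and 103 and 35 in sham, and was at least 6.01-fold higher (log2 difference 4.20, SE 0.61, adjusted p = 0.0016, limma). Vgf encodes a precursor of secreted peptides that nerve growth factor induces. It read 827, 840 and 943 after CCI and 310 and 266 in sham, a 3.03-fold rise (adjusted p = 0.0097, limma). All 3 peptide genes were also higher on the Seltzer 14-day arrays than on either sham array of that day, with Gal at 591 and 848 and Vgf at 748 and 903. In lists each gene is represented by its brightest probe set. Of 21 measured neuropeptide and granin genes these 3 rose by that count, and Chgb, which encodes the granule protein chromogranin B, fell as a doubtful probe set from 812 and 902 in sham to 429, 389 and 324. The list's median difference was -0.14. By an unadjusted p under 0.05 (limma), 4 of its genes rose and 2 fell, and 10.6% of all probe sets had such a p. On dimmer probe sets Adcyap1 was also called higher and Scg5 lower, both as candidates.

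Peptides of the uninjured state did not pass the threshold. Tac1, the gene of substance P, read 1307, 1615 and 1687 after CCI and 2438 and 2110 in sham (log2 difference -0.57, adjusted p = 0.57, limma). Sst, the gene of somatostatin, read 236, 280 and 328 against 930 and 792. On this probe set the log2 difference was -1.57, with a wide spread over all groups (SE 0.73, adjusted p = 0.48, limma). The other Sst probe set ran the opposite way, at 198, 189 and 214 against 34 and 55, and did not pass either. Calca, the gene of CGRP, read 1063 to 1402 against 1382 and 1399. Vip, the gene of another peptide of injured neurons, was above background on no array of either group, with a log2 difference of 1.72 (adjusted p = 0.072, limma).

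The promoters of the 3 peptide genes that rose are shown because these genes rose together. They are RefSeq windows on the rat build GRCr8, from 250 bases before to 50 bases after each gene's start, written 5′ to 3′ on the gene's strand. Npy lies at chr4:80211861-80212160 (plus strand), Gal at chr1:210084523-210084822 (minus strand) and Vgf at chr12:25276971-25277270 (minus strand). A script searched both strands for TGACGTCA, the cAMP response element, and for TGACTCA, the AP-1 element; capitals mark a match.
Npy: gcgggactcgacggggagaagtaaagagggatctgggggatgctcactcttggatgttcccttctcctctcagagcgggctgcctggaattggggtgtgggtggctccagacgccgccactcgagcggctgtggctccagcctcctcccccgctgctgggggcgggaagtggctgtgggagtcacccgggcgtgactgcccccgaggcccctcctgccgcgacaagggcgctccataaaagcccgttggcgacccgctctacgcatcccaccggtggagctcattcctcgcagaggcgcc
Gal: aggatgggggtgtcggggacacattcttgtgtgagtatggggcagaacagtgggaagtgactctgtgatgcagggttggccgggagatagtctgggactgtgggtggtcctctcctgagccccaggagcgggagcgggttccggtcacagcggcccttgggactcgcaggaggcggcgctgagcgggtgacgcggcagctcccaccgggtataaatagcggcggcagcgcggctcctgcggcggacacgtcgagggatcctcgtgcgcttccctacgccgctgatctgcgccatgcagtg
Vgf: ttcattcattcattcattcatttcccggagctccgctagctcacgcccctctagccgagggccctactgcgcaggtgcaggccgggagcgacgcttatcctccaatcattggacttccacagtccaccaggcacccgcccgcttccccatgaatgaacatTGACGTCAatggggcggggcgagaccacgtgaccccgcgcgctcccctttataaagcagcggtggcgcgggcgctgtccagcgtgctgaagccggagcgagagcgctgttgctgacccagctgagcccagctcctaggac
Only the Vgf window of these 3 held a match, a cAMP response element whose first base lies 90 bases before the start. Of all 33469 promoters of this length, 1.83% held that element and 4.63% the AP-1 element. Of 30 named candidate genes, 25 had a promoter in the table.

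Atf3, the transcription factor gene named above, rose. It read 852, 727 and 876 after CCI and 167 and 144 in sham, and was at least 3.46-fold higher (log2 difference 2.28, SE 0.17, adjusted p = 3.5e-06, limma). Its difference between the Seltzer days was 0.01. Jun, which encodes a partner of ATF3, read 501, 471 and 417 against 233 and 233 and did not pass (log2 difference 0.94, adjusted p = 0.51, limma). Hspb1, which encodes the small heat shock protein HSP27, read 4791, 4406 and 3869 against 1742 and 2064, a 2.29-fold rise. Its 3 other probe sets did not pass, and 1 of them was lower after CCI, at 410 to 458 against 556 and 592. Timp1, an inhibitor of matrix proteases, rose 1.48-fold (adjusted p = 0.047, limma), a call lost in 17 of 26 alternative settings. Gap43, which encodes a growth cone protein, read 2630, 2364 and 2879 against 1132 and 1362, a ratio of 2.11 that missed the threshold (adjusted p = 0.068, limma).

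Cacna2d1 encodes the alpha-2-delta-1 subunit of voltage-gated calcium channels, to which gabapentin binds. It read 3439, 3208 and 4012 after CCI and 573 and 629 in sham, a 5.89-fold rise (log2 difference 2.53, SE 0.16, adjusted p = 1.1e-06, limma). It was the only 1 of 14 measured calcium channel genes to pass. Of the sodium channel genes, 2 fell. Scn10a and Scn11a, which encode the sodium channels Nav1.8 and Nav1.9 of nociceptors, fell 2.92-fold and 2.76-fold. Scn10a read 198, 205 and 168 after CCI and 542 and 566 in sham (adjusted p = 0.0067, limma). Scn11a read 571, 467 and 545 against 1737 and 1211 (adjusted p = 0.0023, limma). The other 8 of 10 measured sodium channel genes did not pass, with a list median of -0.45. By an unadjusted p under 0.05 (limma), 4 genes of that list fell and none rose. The calcium channel list had 1 gene each way, and 10.6% of all probe sets had such a p. The nearest was Scn9a, the gene of Nav1.7, at 249 to 275 against 381 and 482 (log2 difference -0.67, adjusted p = 0.066, limma).

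With Cd55, a complement regulator on the cell surface, Scn10a and Scn11a were the 3 of 24 measured nociceptor genes that fell, and none rose. By an unadjusted p under 0.05 (limma), 6 fell and none rose. Of all probe sets 10.6% had such a p in either direction, and 1.43% were called lower. Other channel genes of that list did not pass, with differences of -0.55 for P2rx3, 0.36 for Trpv1 and 0.22 for Asic3. Cd55 read 130, 102 and 87 after CCI, below background, and 485 and 345 in sham, and was at least 2.03-fold lower. In whole ganglia, fewer cells of a type and less RNA per cell cannot be told apart. None of 34 measured potassium channel genes, 46 transmitter receptor genes or 16 genes of neurotrophic factors and their receptors passed in either direction by limma. At an unadjusted p under 0.05, 2 potassium channel genes were higher and 3 lower (a dimmer Kcna1 probe set was called lower, as doubtful), and 2 receptor genes and 1 neurotrophic factor gene were lower.

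Further falls included Nefh, Snap25, Rgs4 and Gnao1. Nefh, the heavy neurofilament subunit of large neurons, read 475, 600 and 437 after CCI and 1003 and 1202 in sham on the probe set that passed (adjusted p = 0.0041, limma). A brighter Nefh probe set read 3606, 3002 and 3676 against 3032 and 2248 and did not pass, so the probe sets of this gene disagree. Snap25, a protein of synaptic vesicle fusion, read 382, 375 and 350 against 712 and 805, a 2.05-fold fall; 2 other probe sets above background were lower as well, at log2 differences of -0.51 and -0.68, without passing. Rgs4, which turns off G protein signals, read 279, 312 and 278 against 644 and 616. Gnao1, a G protein alpha subunit abundant in neurons, read 236, 195 and 247 against 950 and 864, a 4.03-fold fall. The 21-day sham arrays read 206 to 330 for Gnao1, overlapping the CCI arrays, whereas for Rgs4 they read 674 to 960.

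**Figure D2:**
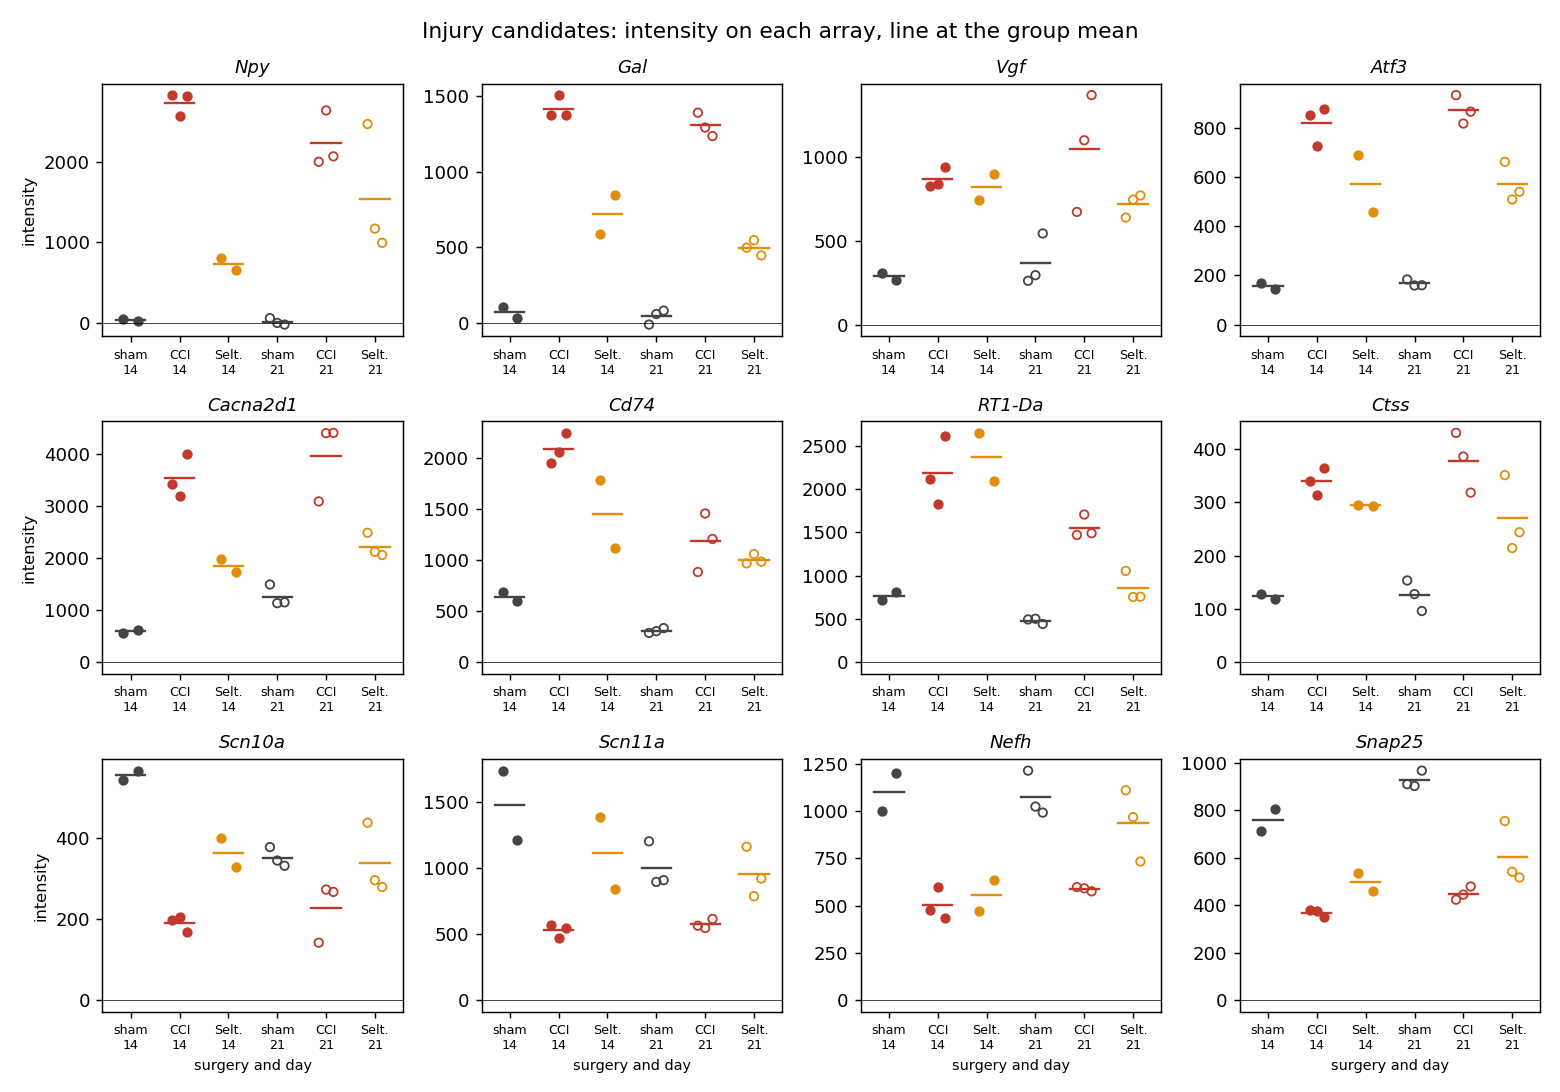
Intensity on each array (y axis, linear) for 12 candidate genes, by surgery and day (x axis); filled points are 14-day arrays, open points 21-day arrays, and the line is the group mean. As for every called probe set, the 3 CCI arrays of day 14 lie apart from both sham arrays. They lie above them in the first 8 panels and below them in the last 4.

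Genes of antigen presentation by MHC class II rose as candidates. Class II molecules show peptides to helper T cells; the invariant chain CD74 escorts them, and cathepsin S cuts it away. Of 10 measured genes of this list 4 rose (Cd74, RT1-Da, RT1-Bb and Ctss) and none fell, with a median difference of 1.17 against 0.00 over all probe sets. By an unadjusted p under 0.05 (limma), 6 rose and none fell. Of all probe sets 10.6% had such a p in either direction, and 1.35% were called higher. Cd74 read 1954, 2059 and 2251 after CCI and 686 and 606 in sham, a 3.23-fold rise (log2 difference 1.67, SE 0.20, adjusted p = 0.00039, limma). A dimmer Cd74 probe set rose too, from 32 and 145 to between 1282 and 1396.

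RT1-Da, a class II alpha chain, read 2115, 1830 and 2616 after CCI and 722 and 810 in sham, a 2.83-fold rise (adjusted p = 0.00066, limma). The Seltzer 14-day arrays read 2647 and 2093 and the Seltzer 21-day arrays 754 to 1054, so the Seltzer day difference ran opposite to the CCI difference. Ctss, the gene of cathepsin S, read 340, 314 and 364 against 127 and 119 and was at least 1.44-fold higher. RT1-Bb, a class II beta chain, read 216, 198 and 166 against 75 and 103 and was above background on only 2 of the 5 arrays. The 6 genes of the list that did not pass had log2 differences from 0.09 (Ctsl) to 1.73 (RT1-DMb).

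Calls on the other immune lists were as follows. Of 18 measured macrophage genes only Ctss passed, and Lyz2, the macrophage lysozyme, had a log2 difference of 0.96 (adjusted p = 0.19, limma). Of 13 interferon-stimulated genes only Ifitm3 passed, at 268, 246 and 337 against 154 and 152; a dimmer Irf7 probe set, below background on all 5 arrays, was also called higher. None of 13 class I genes and none of 17 T, B and mast cell genes passed by limma. By an unadjusted p under 0.05 (limma), 3 macrophage, 1 interferon-stimulated and 1 class I gene were higher, and none was lower. Of all probe sets 10.6% had such a p. Serpina1, an inhibitor of neutrophil elastase, and C1s, a protease that starts the complement cascade, each passed: Serpina1 read 227 to 290 against 43 and 50, and C1s 272 to 278 against 44 and 69. For C1s the 21-day sham arrays read 137 to 210, above the 14-day ones.

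The promoters of RT1-Da and RT1-Bb are shown since both genes rose. They lie at chr20:4515165-4515464 (plus strand) and chr20:4604069-4604368 (minus strand), in the same GRCr8 windows. Capitals mark CCAAT on either strand, the core of the Y box of class II promoters.
RT1-Da: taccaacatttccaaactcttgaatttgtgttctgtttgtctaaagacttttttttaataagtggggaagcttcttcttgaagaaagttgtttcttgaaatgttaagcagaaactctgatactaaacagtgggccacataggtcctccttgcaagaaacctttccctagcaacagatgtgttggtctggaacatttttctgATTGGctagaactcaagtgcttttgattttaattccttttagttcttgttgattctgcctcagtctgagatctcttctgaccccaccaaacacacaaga
RT1-Bb: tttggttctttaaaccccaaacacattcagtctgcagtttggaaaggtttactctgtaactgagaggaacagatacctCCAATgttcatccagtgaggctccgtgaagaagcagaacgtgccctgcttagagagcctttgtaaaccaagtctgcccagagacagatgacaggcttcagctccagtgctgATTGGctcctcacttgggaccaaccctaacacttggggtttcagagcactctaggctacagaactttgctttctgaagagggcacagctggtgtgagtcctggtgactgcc
The matches begin 49 bases before the start in RT1-Da and 172 and 61 bases before it in RT1-Bb. CCAAT is common: 37.5% of all promoters of this length held it.

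The largest fall of all, for Kctd13, did not follow either split of the arrays. KCTD13 is an adaptor of a ubiquitin ligase. Its probe set read 64, 128 and 69 after CCI and 1791 and 1833 in sham, and was at least 8.99-fold lower (log2 difference -4.20, adjusted p = 6.1e-08, limma). The Seltzer 14-day arrays were low as well, at 216 and 193, while every 21-day array lay between 1136 and 1781, injured or not. Another Kctd13 probe set read 424, 441 and 528 after CCI and 357 and 254 in sham, and the other one also did not pass, so the fall was seen with 1 of 3 probe sets.

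Of 34 measured skeletal muscle genes Acta1 and Eno3 rose and none fell, with a list median of 0.24. The others did not pass. They ranged down to log2 differences of -1.01 for Myh1 and -0.98 for Myh2, which encode myosin heavy chains. At the upper end was Tnnt3, a troponin, at 1.95. By an unadjusted p under 0.05 (limma), 6 genes of the list were higher and 1 lower, and 10.6% of all probe sets had such a p. Acta1, skeletal muscle actin, read 4017, 3818 and 4406 after CCI and 1543 and 1870 in sham. It read 421 to 497 in CCI ganglia and 1383 to 1803 in sham ganglia at 21 days, the reverse order. Myl11, a fast myosin light chain, read 708 to 829 against 71 and 148, a call lost in 13 of 26 settings. The summed muscle markers given above include Acta1, so their rise is in part the Acta1 rise and is not separate support.

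Day 21 gives the same injury and control on arrays that neither contrast of the rule used. The tests are not independent, since all contrasts take the spread of a probe set from 1 fit. A small spread that helped a call at 14 days also helps one at 21 days, in either direction. In CCI against sham at 21 days, 81 probe sets (0.927%) were called, 47 higher (0.538%) and 34 lower (0.389%). Of the 49 candidates that were higher at 14 days, 14 (28.6%) were called higher at 21 days, and of the 46 lower ones 7 (15.2%) were called lower. Of the 99 marked probe sets, 2 were called in the same direction (Apbb3 and 1 with no symbol). In the opposite direction 1 of them was called, for Srsf2. Of the 49 doubtful ones none was called in the same direction and 2 were called in the opposite one. At an unadjusted p under 0.05 by limma, which 12.3% of all probe sets had, 41 candidates, 5 marked and 3 doubtful probe sets had the same direction at 21 days, and 17, 21 and 6 the opposite one. Turned to the direction of day 14, the median difference at 21 days was 0.34 for candidates and -0.11 for marked probe sets. Leaving out CCI 21-day replicate 1, which stood apart from its group, 16 candidates were called again, and without sham 21-day replicate 1, which also did, 18.

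The 14 rises called on both days were Npy, Gal, Cacna2d1, Gadd45a, Atf3, Serpina1, Reg3b, Cd74, Vgf, RT1-Da, Ctss, Adcyap1, Ptpro and Camk2d. The named falls were Fbxo2, Rnf157, Snap25, Nefh and Vamp1; the other 2 had no gene symbol. Those outside the naming rule were named after their values were seen. The Gadd45a call at 14 days rests on a dimmer probe set, at 207 to 292 against 22 and 54; its brightest one differed by -0.06. Reg3b was above background on none of the 5 arrays. For Npy the 21-day arrays read 1999, 2636 and 2067 after CCI and 61, 2 and -18 in sham. Atf3 differed by 2.28 on both days. Adcyap1, the gene of the peptide PACAP, read 476 to 527 against 218 and 261 at 14 days and 366 to 491 against 113 to 152 at 21 days, and 2 other probe sets of it did not pass at either day. Ptpro, a receptor tyrosine phosphatase of neurons, read 195 to 215 against 95 and 112, then 207 to 265 against 66 to 80. Vamp1, a vesicle fusion protein, read below 0 on all 6 CCI arrays of both days, 224 and 233 in 14-day sham and 266 to 368 in 21-day sham. Only 1 of the 2 sham arrays of day 14 was above background on this probe set. A brighter Vamp1 probe set read 127, 134 and 249 after CCI and 226 and 325 in sham at 14 days, which overlap, and passed on neither day.

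The nociceptor channels did not pass at 21 days. Scn10a then had a log2 difference of -0.65 (adjusted p = 0.31) and Scn11a of -0.77 (adjusted p = 0.11), by limma. The difference between the days was not called for either. A further 11 candidates were called in the opposite direction at 21 days, 3 of them higher at 14 days (Acta1, Myl11 and 1 with no symbol) and 8 lower. For Myl11 this was another probe set, at 1418, 1804 and 944 against 131 and 337 at 14 days; the one described above was not called at 21 days (adjusted p = 0.38, limma). The 8 included probe sets assigned to Crp and to Rpl19l4, and the rest of them had no gene symbol. The Crp probe set read 687, 718 and 636 after CCI and 1318 and 1594 in sham at 14 days, and 1328 to 2001 against 347 to 685 at 21 days. CRP is an acute-phase protein of the liver, and this probe set belongs to a kind that can also read related sequences. Of 2 other Crp probe sets, 1 of the same kind ran the same way without passing. The other read 18 to 45 after CCI and 23 and 35 in sham, below background. A change of Crp itself is therefore not shown, and whether the Rpl19l4 probe set reads that gene was not tested.

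**Figure D3:**
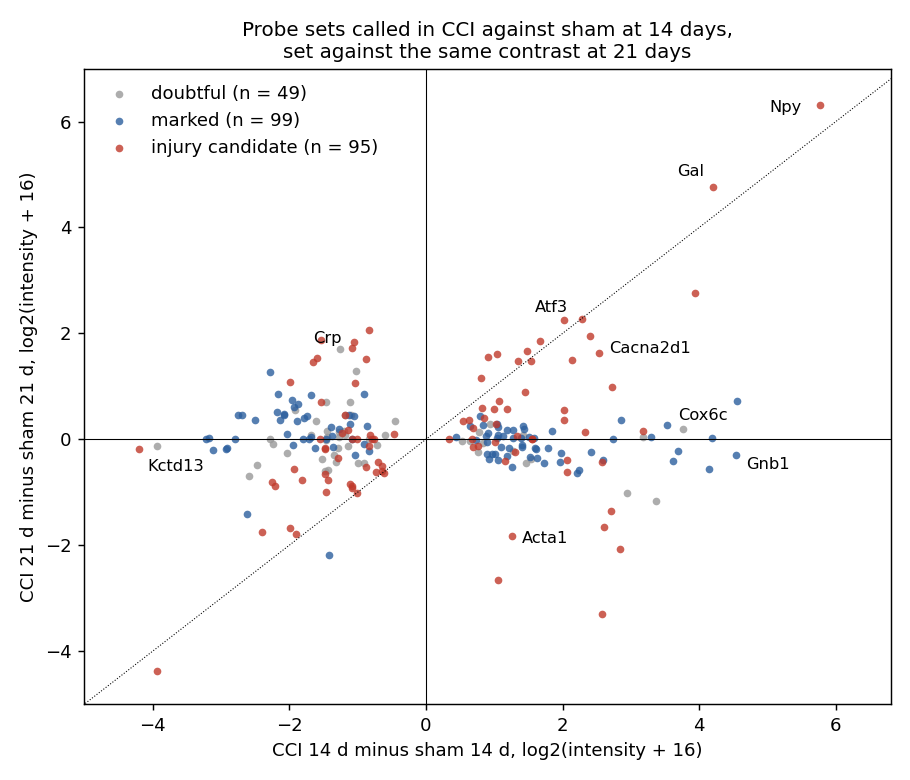
The same 243 probe sets, with the 14-day difference on the x axis and CCI minus sham at 21 days on the y axis, both on the log2(intensity + 16) scale; the dotted line marks equal differences. Npy, Gal, Atf3 and Cacna2d1 lie near the line, marked probe sets such as Gnb1 and Cox6c near the horizontal axis, and Acta1 and Crp on the other side of it.

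Set against the 21-day sham arrays, which resemble the CCI arrays more, 31 of the 95 candidates (22 higher, 9 lower) were called in their own direction, as were 3 of the 99 marked and none of the 49 doubtful probe sets. This contrast shares the CCI arrays with the main one and is a description. Atf3 then differed by 2.19, Npy by 6.61, Gal by 4.87, Cacna2d1 by 1.49 and Cd74 by 2.69. Scn10a fell short, at -0.83 (adjusted p = 0.24, limma), and Scn11a at -0.90 (adjusted p = 0.067, limma). Cacna2d1 was lower in sham at 14 days (573 and 629) than at 21 days (1139 to 1497).

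Values of some marked genes follow, which by the rule differ between the Seltzer days. Cox6c, a subunit of cytochrome oxidase, read 3407, 3546 and 3253 after CCI and 358 and 219 in 14-day sham. On the Seltzer arrays it read 183 and 168 at 14 days and 2288 to 3017 at 21 days, and in 21-day sham 1371 to 2057. Gnb1, a G protein beta subunit, read 2520 to 2877 after CCI, 60 and 166 in 14-day sham, and 3109 to 3491 in 21-day sham. The sham and Seltzer arrays of day 14 were thus low together for these genes, and the other arrays of days 14 and 21 high. Falls showed the mirror image: Egr1, an immediate early transcription factor, read 261 to 311 after CCI, 743 and 762 in 14-day sham, 873 and 955 in 14-day Seltzer and 248 to 313 in 21-day sham.

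By list, 6 of the 7 ribosomal protein genes that rose were marked (Rpl17, Rpl27, Rpl36, Rpl39, Rps16 and Rplp0), with Rpl26 the only candidate, of 37 measured. On other probe sets Rpl21, Rps15 and Rps29 were called higher as marked and Rpl24 higher as a candidate. The list's median difference was 0.47. Both oxidative phosphorylation genes that rose, Cox6c and Cox7b of 36 measured, were marked, and so were all 3 cytoskeletal genes (Mapt, Dpysl2 and Marcks of 18), whose list had a median of 0.46. Mapt encodes tau, Dpysl2 the growth cone protein CRMP2, and Marcks an actin-binding kinase substrate. None of the 8 axotomy genes, 3 nociceptor genes or 4 class II genes that passed was marked or doubtful. The class is set by the Seltzer contrast, so these splits are description and do not show that a list lacks an array-set difference. Heat shock genes were mixed: Hspb1 rose as a candidate, Hspe1 fell as marked and Dnajc5 fell as doubtful, of 25, and Hspa9 was lower as doubtful on another probe set. In glycolysis, Eno1 and Eno3 rose as candidates of 21, and in cholesterol synthesis Mvd rose as doubtful of 17, with Idi1 lower as marked on another probe set. A dimmer Cox4i1 probe set, of oxidative phosphorylation, was lower as doubtful. By an unadjusted p under 0.05 (limma), 15 ribosomal protein genes were higher and 1 lower. These counts were 5 and 3 for oxidative phosphorylation and for the cytoskeleton, and 1 and 3 for heat shock. They were 4 and 2 for glycolysis and 4 and 0 for cholesterol synthesis. Of all probe sets 10.6% had such a p.

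**Figure D4:**
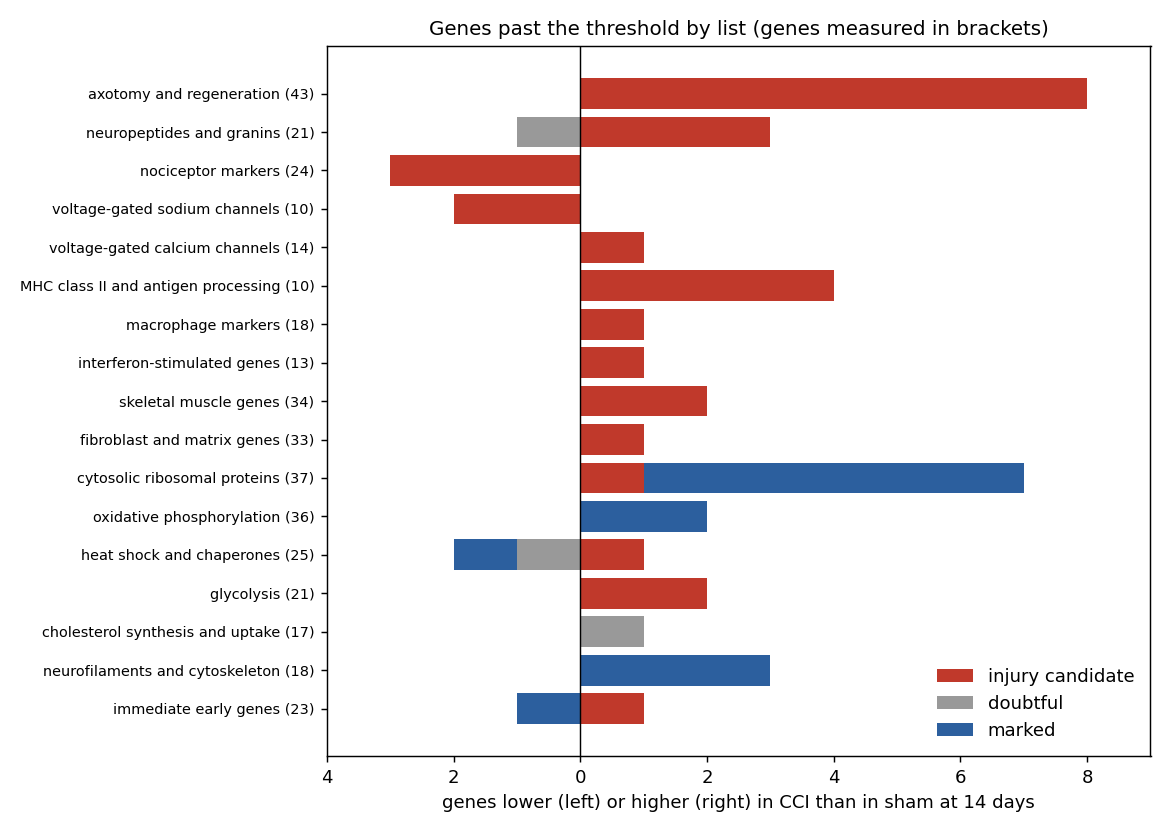
Number of genes that passed in CCI against sham at 14 days (x axis, lower to the left of 0 and higher to the right) for each of the 17 gene lists with at least 1 (y axis, genes measured in brackets), coloured by class. Among called genes the class is set by the Seltzer contrast. The axotomy, nociceptor and class II bars are candidates throughout, and 6 of 7 ribosomal protein genes are marked.

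**Figure D5:**
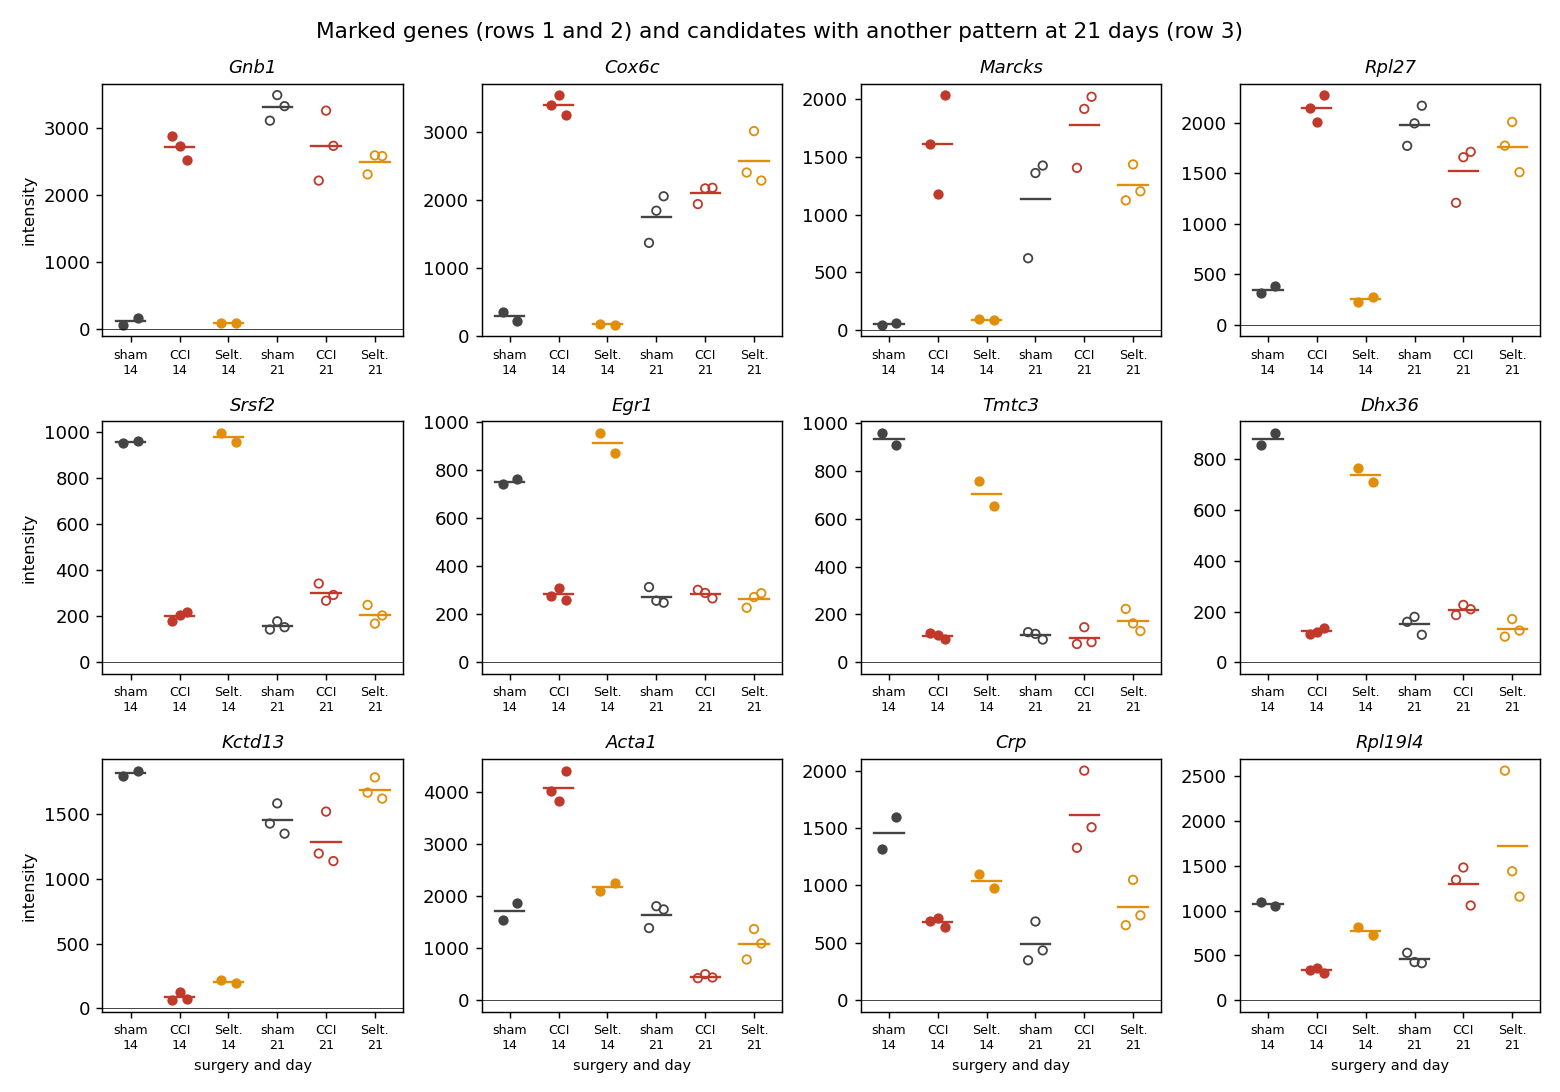
Intensity on each array (y axis, linear) for 8 marked genes and, in the last row, 4 candidates with another pattern at 21 days, by surgery and day (x axis); filled points are 14-day arrays, open points 21-day arrays, and the line is the group mean. In the upper rows the sham and Seltzer arrays of day 14 stand together against the others shown, and of the arrays shown Kctd13 is low in CCI and Seltzer at 14 days alone.

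Other probe sets of the same gene give a second reading that the rule did not use, on the same arrays. Of 75 candidates with a single gene symbol, 28 had another probe set above background on at least 1 array; 7 had one called in the same direction and 1, for Marcks, in the opposite one. For marked probe sets these counts were 25, 9 and 1 of 67, and for doubtful ones 15, 0 and 1 of 35. Among the other probe sets, 28 of 35 shared the sign of the candidate, 29 of 37 that of the marked and 6 of 19 that of the doubtful one. Of all probe sets 2.78% were called, and the share of same signs over all genes is not given. The counts are of probe sets, so a gene with several called ones enters more than once. Psmb4, a proteasome subunit, had 3 marked probe sets, and Gnb1 had 2 that rose. The Srsf2 splicing factor had a marked probe set that fell, from 953 and 958 in sham to 180 to 218, and a doubtful one that rose, from 335 and 340 to 553 to 617. Probe sets designed from expressed sequence tags made up 31.6% of candidates, 46.9% of doubtful and 52.5% of marked probe sets, against 39.1% of all tested.

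A few lists had no gene past the threshold in either direction: large fibre markers (15 measured), Schwann cell and myelin genes (15), satellite glia (10), endothelium (16), blood (9), fat (11) and synaptic vesicle genes (38). At an unadjusted p under 0.05 by limma, which 10.6% of all probe sets had, 3 satellite glia and 2 blood genes were higher. By that count 3 vesicle genes and 1 large fibre gene were lower. The Schwann and endothelial lists had 1 gene each way, and the fat list had none. These counts take 1 probe set a gene, and some members passed only on another one. These were Nefh, Vamp1, Map1b (all lower, candidates) and Kcna1 (lower, doubtful) for large fibres, and Snap25, Vamp1 and Syn2 (lower, marked) for vesicles. On the Schwann list Pmp22 was higher and marked, at 1225 to 1469 against 486 and 597, and on the satellite glia list Sparc was higher and marked on 2 probe sets, with differences of 1.41 and 1.78. The fibroblast and matrix list held Timp1 as its only call of 33, besides those Sparc probe sets. The difference between the CCI effects of the 2 days passed for 157 probe sets (1.8%), among them 27 candidates, 79 marked and 18 doubtful ones. A test of the 14-day difference beyond the Seltzer day difference passed for 38 (0.435%), including 27 candidates, 1 marked and 1 doubtful one in their own direction; it uses the values that set the classes and is given as description.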

How the data were processed

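The deposited values are intensity on a linear scale, 1 column per array, with 8799 probe sets, of which 59 array controls were left out. The software, the background step and any scaling by the authors are unstated in these sources; every array's mean, after trimming 2% at each end, was 150.1 to 150.2. Negative values were set to 0, 16 was added and log2 was taken. All 20 arrays entered 1 limma 3.58.1 fit (R 4.3.3) of 8 group means, with 12 residual degrees of freedom and Benjamini-Hochberg adjustment over 8740 probe sets. A fold is the ratio of geometric means, or "at least" the brighter mean over the dimmer group's background where no array of that group was above background.

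Gene symbols came from the platform table (7006 probe sets with 1 symbol, 308 with several, 1426 with none), updated by Entrez ID. In lists, a gene's brightest probe set by mean stood for it. Named genes were the 12 largest rises and falls among candidates and 5 of each among marked probe sets (brighter group above background on all arrays, 1 per gene), up to 3 called members per list and a fixed set; genes outside it were chosen after their values were seen. Members, lists and rules were chosen with earlier results of these data known. Alternatives covered the number added, scaling, filters, the arrays fitted and each array left out. The code was tested on simulated data. Promoters came from a RefSeq table.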

Additional observations from a re-analysis of the deposited data

Results flagged for a closer look

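For 25 of the genes named, the CCI effect at 14 days differed from that at 21 days by the interaction test (limma, adjusted p under 0.05); 17 of them are marked, 1 is doubtful and 7 are candidates. Since the 14-day sham arrays lie on the other side of the array split and the 21-day sham arrays do not, day and array set cannot be told apart in these differences. The values below are the 14-day effect minus the 21-day effect on the log2(intensity + 16) scale.

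Among marked genes the positive differences were those of Gnb1 (4.82), Nrn1 (4.71), Abcd3 (4.02), Marcks (3.84), Cox6c (3.25), Rpl27 (2.97), Cox7b (1.45), Dpysl2 (1.37), Rps16 (1.25) and Mapt (0.81). The negative ones were Dhx36 (-3.14), Srsf2 (-3.03), Rfc1 (-2.87), Tmtc3 (-2.74), Syn2 (-2.54), Egr1 (-1.43) and Hspe1 (-1.21). Mvd, the doubtful gene, differed by 3.96.

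Among candidates, the muscle genes Eno3 (4.26), Myl11 (4.06) and Acta1 (3.08) and the complement gene C1s (1.67) had the more positive effect at 14 days. The probe sets for Kctd13 (-4.02), Rpl19l4 (-3.13) and Crp (-2.80) had the more negative one.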

How the results depend on the processing

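The counts were 243 called, 95 candidates, 49 doubtful and 99 marked, with 209 in the Seltzer contrast and 157 in the difference between days. Centring arrays on their median, which shifts the median of all probe sets by 0.12, gave 146, 49 candidates, 64 marked, 137 and 91, with 56.8% of calls higher against 48.6%. Leaving out the dimmest 33.3% gave 153, 53 candidates, 63 marked and 134. Array weights gave 784, 396 candidates, 158 doubtful, 230 marked, 408, 344 and, at 21 days, 136. Without the arrays that stand apart (chosen after seeing the data) these were 680, 313, 112, 255, 501 and 287. Fitting only the 4 groups of the rule gave 145 candidates and 88 doubtful, and only the groups compared gave 514 called. With 21-day sham as control, 58 were called (55 candidates, 0 doubtful, 3 marked).

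With 1 of the 5 compared arrays left out, the called ran from 142 to 193, and with 1 of the Seltzer or 21-day arrays left out, as far as these were run, from 212 to 348. Over the 14-day and Seltzer 21-day arrays left out, candidates ran from 52 to 100, doubtful from 13 to 63, marked from 62 to 101, and the Seltzer contrast from 103 to 287. The difference between days ran from 118 to 159 and day 21 from 65 to 67.

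Only 21-day sham as control reversed named genes: Gnb1 (-0.29), Nrn1 (-0.76), Abcd3 (-0.35), Dpysl2 (-0.035), Cox7b (-0.16), Crp (0.52), Hgs (0.14), Hspe1 (0.14), Egr1 (0.053), Syn2 (0.17), Srsf2 (0.32) and Rfc1 (0.11). The cause was not tested. Npy, Cacna2d1, Atf3, Serpina1, Ctss and Kctd13 kept their calls in all 26 settings, as did the brighter Cd74 and RT1-Da probe sets and Cox6c.

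The replicate numbers did not pair the arrays (deviations correlated at -0.04 and 0.05). A replicate block gave 233 called, 94 candidates, 45 doubtful and 94 marked, and ended 3 named calls (Timp1, Rpl17 and Cox7b). Precision is limited by the 2 sham arrays and by a spread taken over all 20 arrays, and without those that stand apart 680 were called. Only 20.1% to 24.0% of probe sets were above background on the arrays compared.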
